A study of Mus musculus with 12 samples.

Results

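The genes described here encode the Wnt ligands and the proteins that receive, amplify, block or report their signal. They were found in the table of 20606 genes by their symbols: all numbered Wnt and Fzd genes, Sfrp1 to Sfrp5, Dkk1 to Dkk4, Dkkl1, Rspo1 to Rspo4, Lgr4 to Lgr6, Lrp5, Lrp6, Ror1, Ror2, Wif1, Frzb, Notum, Znrf3, Rnf43 and Axin2. This gave 55 genes: 19 ligands, 10 Frizzled receptors, 4 coreceptors, 4 R-spondins, 3 R-spondin receptors, 2 ubiquitin ligases, 12 secreted inhibitors and Axin2. The rule uses symbols alone.

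Wnt proteins are lipid-modified ligands that bind a Frizzled receptor together with Lrp5 or Lrp6, which stops the breakdown of beta-catenin and lets it switch on target genes, or together with Ror1 or Ror2, which feeds branches that do not use beta-catenin. R-spondins bind Lgr receptors and keep the ligases Znrf3 and Rnf43 from removing Frizzled receptors, while Sfrp, Wif1, Frzb, Dkk and Notum proteins act outside the cell to hold the signal down. In the lung, mesenchymal cells supply several of these ligands and inhibitors to the neighbouring epithelium, and Wnt7b is known as a ligand of the embryonic airway epithelium.

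The series measured RNA in fibroblasts of the mouse lung by bulk sequencing, in 12 libraries. Cells came either from normal mice (N) or from mice carrying lung metastases (M), and each source was divided into the subgroups called MF and MyoF in the labels. The groups N-MF, M-MF, N-MyoF and M-MyoF hold 3 libraries each, and the series title speaks of matrix fibroblasts positive for Tdo2 and of lung metastasis of breast cancer. Strain, age, the tumour cells, and the markers used to purify the cells were not stated. Values are FPKM, in which the number of fragments is divided by transcript length and by the size of the library, so the read depth is unknown, and in bulk libraries fewer cells of a type and less RNA per cell cannot be told apart. No label says that the 3 libraries of a group came from separate mice, and p-values therefore reflect only how these libraries vary among themselves, possibly for technical reasons.

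The libraries summed to between 528176 and 618478 FPKM. The 6 fibroblast markers summed to between 20950 and 21182 FPKM in N-MF, 15232 and 15352 in M-MF, 3467 and 3518 in N-MyoF and 1975 and 1994 in M-MyoF, and none of the 6 was at 0 in any group. The sums were thus lower in the metastasis libraries of both subgroups. In M-MF 5 of the 6 markers were called lower and 1 higher (limma), where 31.8% of all genes tested were called lower and 46.3% higher. In M-MyoF 3 were lower and 0 higher, where all genes gave 31.6% and 49.1%. The part of these lower sums in the values below was not tested. Of 12 genes used to check the subgroup names, 9 were lower in N-MF than in N-MyoF, among them Acta2, smooth muscle actin, with means of 24.0 and 628 FPKM. Tcf21 (201 against 43.0 FPKM), Col14a1 (156 against 81.8 FPKM) and Pi16 (1295 against 25.6 FPKM) were higher in N-MF, while Col13a1 (3.03 against 5.01 FPKM), Npnt (12.2 against 39.6 FPKM) and Itga8 (4.45 against 11.3 FPKM) were lower there. Between N-MyoF and M-MyoF 8 of the 12 were called lower and 2 higher (limma), where all genes gave 31.6% and 49.1%. Hhip averaged 2231 and 787 FPKM in these groups and Aspn 1210 and 683 FPKM, while Acta2 rose to 949 FPKM. In M-MF 7 were called lower and 4 higher (all genes 31.8% and 46.3%). Pi16, Tcf21 and Col14a1 averaged 593, 72.3 and 91.0 FPKM there, while Acta2 averaged 79.7 FPKM. The part of these changes in the values below was not tested. All groups also held transcripts of other cells: 10 airway epithelial markers summed to 15532 to 16025 FPKM in N-MyoF, and 10 neutrophil markers summed to 140 to 154 FPKM in N-MyoF and to between 13368 and 13712 FPKM in M-MyoF. The part of such transcripts in the values below was not tested, and the marker sums that moved most are given beside some of the genes they moved with.

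Of the 55 genes, 41 passed the filter of at least 1 FPKM in at least 3 libraries and were tested, and 24 averaged at least 5 FPKM in a group. The 14 that did not pass were Wnt1, Wnt3, Wnt3a, Wnt8a, Wnt8b, Wnt9b, Fzd5, Fzd8, Fzd10, Rspo2, Rnf43, Dkk1, Dkk4 and Dkkl1, and the highest single value among them was 1.14 FPKM, for Fzd5. A gene that passed only through the group where it is high had to differ, so counts over the 41 describe them and support nothing. Fold changes and their standard errors are from 1 limma fit of log2(FPKM + 1), a scale that understates the change of genes near 0, and the threshold was an adjusted p under 0.05, with the adjustment over all 13300 genes tested.

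In the MF subgroup 33 of the 41 genes passed between M-MF and N-MF, against 78.1% of all genes tested. In M-MF 10 of them were higher and 23 lower, while 46.3% of all genes were called higher and 31.8% lower. The median log2 change was -0.26 for the 41 genes and 0.08 for all genes. In the MyoF subgroup 34 of the 41 passed between M-MyoF and N-MyoF, against a background of 80.7%, with 9 higher and 25 lower where all genes gave 49.1% and 31.6%. The libraries of the compared groups did not overlap for 36 genes in the MF subgroup (79.8% of all genes) and for 33 in the MyoF subgroup (82.2%). The MyoF median was -0.25 for the 41 genes and 0.11 for all genes.

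The number of calls was near the background in both subgroups. In FPKM as listed, more of the 41 genes were lower than higher, while more of all genes were higher than lower. The sums of FPKM differ between libraries, and rescaling moved the median of all genes by more than 0.1, to -0.05 in the MyoF subgroup with equal sums and to -0.10 in the MF subgroup with quantile normalization. The split of the 41 genes was then 9 higher and 26 lower with equal sums in the MF subgroup and 6 higher and 27 lower in the MyoF subgroup, and 8 and 30 and 5 and 31 with quantile normalization. With equal sums the share of higher genes among all calls fell from 59.3% to 50% in the MF subgroup and from 60.8% to 46.1% in the MyoF subgroup. With quantile normalization it fell to 40.4% and 41.1%, so more of all called genes were then lower than higher in both subgroups.

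At 2-fold or more, 9 of the 41 genes passed in the MF subgroup (background 11.9%) and 8 in the MyoF subgroup (14.6%). The MF genes were Wnt7b, Wnt10a, Wnt4 and Sfrp2, which rose (4, background 9.32%), and Wnt2b, Wnt5a, Wnt9a, Wnt11 and Dkk2, which fell (5, background 2.54%). The MyoF genes were Wnt7b, Wnt10a, Sfrp1 and Sfrp2, which rose (4, background 11.4%), and Fzd9, Lgr5, Sfrp5 and Wif1, which fell (4, background 3.24%). The metastasis effects of the 2 subgroups differed by the test of the difference itself in 34 of the 41 genes, where 64.4% of all genes differed. In 16 of them the MF effect was the higher and in 18 the lower (backgrounds 26.4% and 38.0%). For 8 genes the effects differed by 2-fold or more, against 7.10% of all genes, 5 higher and 3 lower in the MF subgroup (3.83% and 3.27%).

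**Figure D1:**
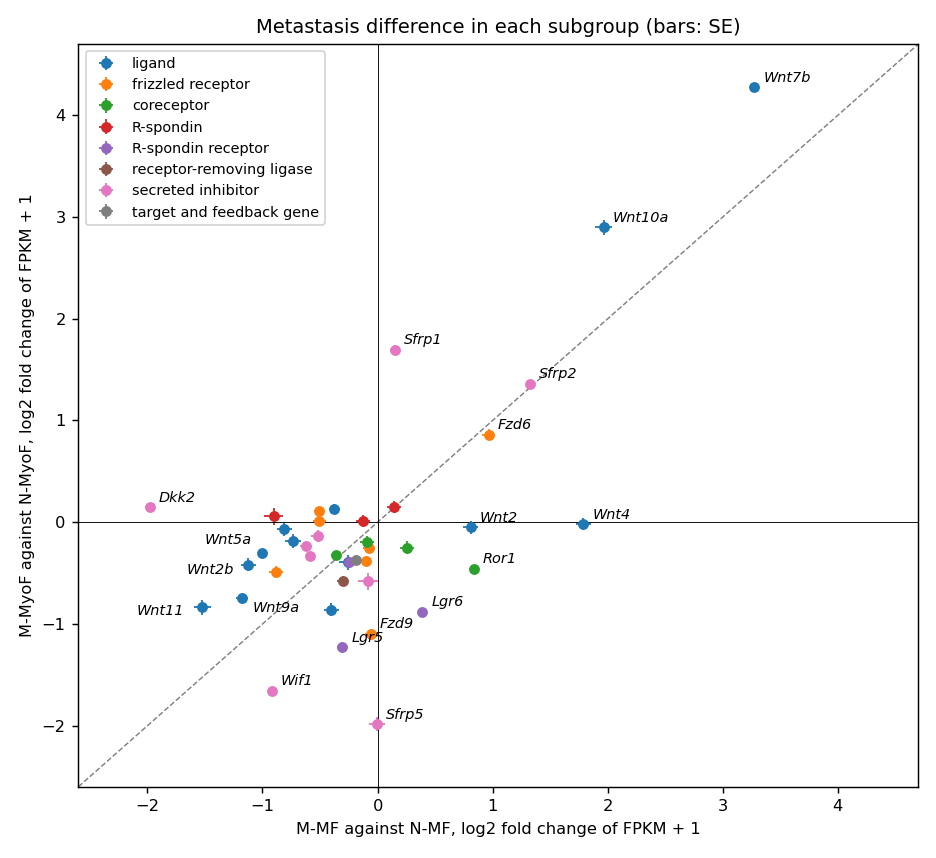
Each point is 1 of the 41 tested genes, placed by its log2 fold change of FPKM + 1 between M-MF and N-MF on the horizontal axis and between M-MyoF and N-MyoF on the vertical axis, with bars for the SE and colours for the role. Wnt7b and Wnt10a lie at the upper right, whereas Dkk2, Sfrp1, Sfrp5 and Wnt4 lie far from the dashed line of equal change.

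Wnt7b was the ligand that differed most. The gene lies on chromosome 15 (GRCm38, 85535437 to 85581821). In N-MF it was listed at 0.04, 0 and 0 FPKM and in M-MF at 8.65, 9.11 and 8.64 FPKM. In N-MyoF it stood at 0.09, 0.09 and 0.05 FPKM and in M-MyoF at 20.19, 19.70 and 19.64 FPKM. All 6 normal libraries were thus near 0 and all 6 metastasis libraries well above them, with no overlap. The log2 change was 3.27 ± 0.0394 (SE, n = 3 per group) in the MF subgroup (limma, adjusted p = 1.21e-15) and 4.28 ± 0.0394 in the MyoF subgroup (adjusted p = 1.37e-16). On the log2(FPKM + 1) scale it was larger in the MyoF subgroup by the test of the difference, -1.0 ± 0.0557 for MF minus MyoF (limma, adjusted p = 8.95e-09). N-MF and N-MyoF averaged only 0.0133 and 0.0767 FPKM. On this scale the difference therefore mostly reflects the M-MF and M-MyoF means of 8.80 and 19.8 FPKM, and its size depends on the value added before the log.

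Wnt10a (chromosome 1, 74792019 to 74804176), a ligand known from skin, tooth and mammary development, followed the same pattern at a lower level. It was listed at 0.05, 0 and 0 FPKM in N-MF and at 3.40, 2.46 and 3.09 FPKM in M-MF. In N-MyoF it stood at 0.21, 0.14 and 0.17 FPKM and in M-MyoF at 7.77, 7.49 and 7.96 FPKM. The log2 change was 1.96 ± 0.0737 in the MF subgroup (limma, adjusted p = 5.21e-11) and 2.90 ± 0.0737 in the MyoF subgroup (adjusted p = 9.28e-13). On the log2(FPKM + 1) scale the MyoF change was larger (difference -0.93 ± 0.104, adjusted p = 6.52e-06), but with a pseudocount of 0.1 the difference was -0.11 and did not pass (adjusted p = 0.714).

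The RefSeq neighbour of Wnt10a is another ligand, Wnt6, whose end lies 6697 bases before the start of Wnt10a. Wnt6 did not rise with it: in the MyoF subgroup it fell from 2.48, 2.06 and 2.27 FPKM to 1.42, 1.59 and 1.44 FPKM (log2 change -0.40 ± 0.0728, limma, adjusted p = 0.000252). In the MF subgroup Wnt6 was under 1 FPKM in all 6 libraries, and its log2 change of -0.26 passed (limma, adjusted p = 0.00587) but not without the 4 libraries numbered 3 (-0.23, adjusted p = 0.0750).

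The sum of the carcinoma epithelial markers was higher with Wnt7b and Wnt10a in both subgroups. The 10 markers summed to 16.0 to 18.0 FPKM in N-MF and 301 to 309 FPKM in M-MF, and to 74.5 to 77.2 FPKM in N-MyoF and 714 to 736 FPKM in M-MyoF. The increase lay in the keratins: Krt8 averaged 5.31 FPKM in N-MF and 166 FPKM in M-MF, and Krt14 was listed at 0 in all N-MF libraries and averaged 8.61 FPKM in M-MF. Epcam, in contrast, averaged 1.91 FPKM in N-MF and 2.58 FPKM in M-MF, and Cdh1, E-cadherin, 1.81 FPKM and 1.5 FPKM. In N-MyoF and M-MyoF Krt8 averaged 23.0 and 387 FPKM, Epcam 5.96 and 6.15 FPKM and Cdh1 7.14 and 5.6 FPKM. Of the 8 carcinoma markers tested, 5 were called higher and 1 lower in M-MF (limma, all genes 46.3% and 31.8%). In M-MyoF 3 were called higher and 2 lower (all genes 49.1% and 31.6%). The sum of 10 mesothelial markers was also higher, at 18.9 to 20.5 FPKM in N-MF and 293 to 299 FPKM in M-MF, and at 146 to 151 FPKM in N-MyoF and 282 to 291 FPKM in M-MyoF. The sum of the 10 neutrophil markers was higher as well, at 33.5 to 38.2 FPKM in N-MF and 254 to 262 FPKM in M-MF, beside the MyoF sums given above. In M-MF 8 of these 10 were called higher and 2 were not called (limma, background 46.3% higher). The part of these cell types in the Wnt7b and Wnt10a values, and in the other genes that rose in both subgroups, was not tested.

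Wnt4, known for its roles in kidney and mammary gland development, differed only in the MF subgroup by call, and the difference of effects passed. It stood at 0.58, 0.61 and 0.65 FPKM in N-MF and at 4.47, 4.40 and 4.85 FPKM in M-MF (log2 change 1.79 ± 0.0634, limma, adjusted p = 2.96e-11). N-MyoF gave 0.96, 0.92 and 0.72 FPKM and M-MyoF 0.91, 0.91 and 0.71 FPKM, which overlap (log2 change -0.02, adjusted p = 0.806), although quantile normalization gave a MyoF decrease of -0.24 that passed (adjusted p = 0.00197). The difference between the effects was 1.81 ± 0.0897 (adjusted p = 3.15e-09). The M-MF libraries were thus the only ones above 1 FPKM.

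Wnt2, which lung mesenchyme makes during development, gave a similar contrast. It was at 4.55, 4.02 and 4.32 FPKM in N-MF and at 8.22, 8.08 and 8.52 FPKM in M-MF, without overlap (log2 change 0.81 ± 0.0648, limma, adjusted p = 1.13e-07). It was at 2.71, 3.03 and 3.49 FPKM in N-MyoF and at 2.87, 3.11 and 2.79 FPKM in M-MyoF, which overlap (log2 change -0.05, adjusted p = 0.473), and passed as a decrease of -0.20 with equal sums (adjusted p = 0.0161). The difference of effects was 0.86 ± 0.0917 (adjusted p = 4.28e-06). The mesothelial sums given above were also further apart in the MF subgroup than in the MyoF subgroup, and their part in the Wnt4 and Wnt2 values was not tested.

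**Figure D2:**
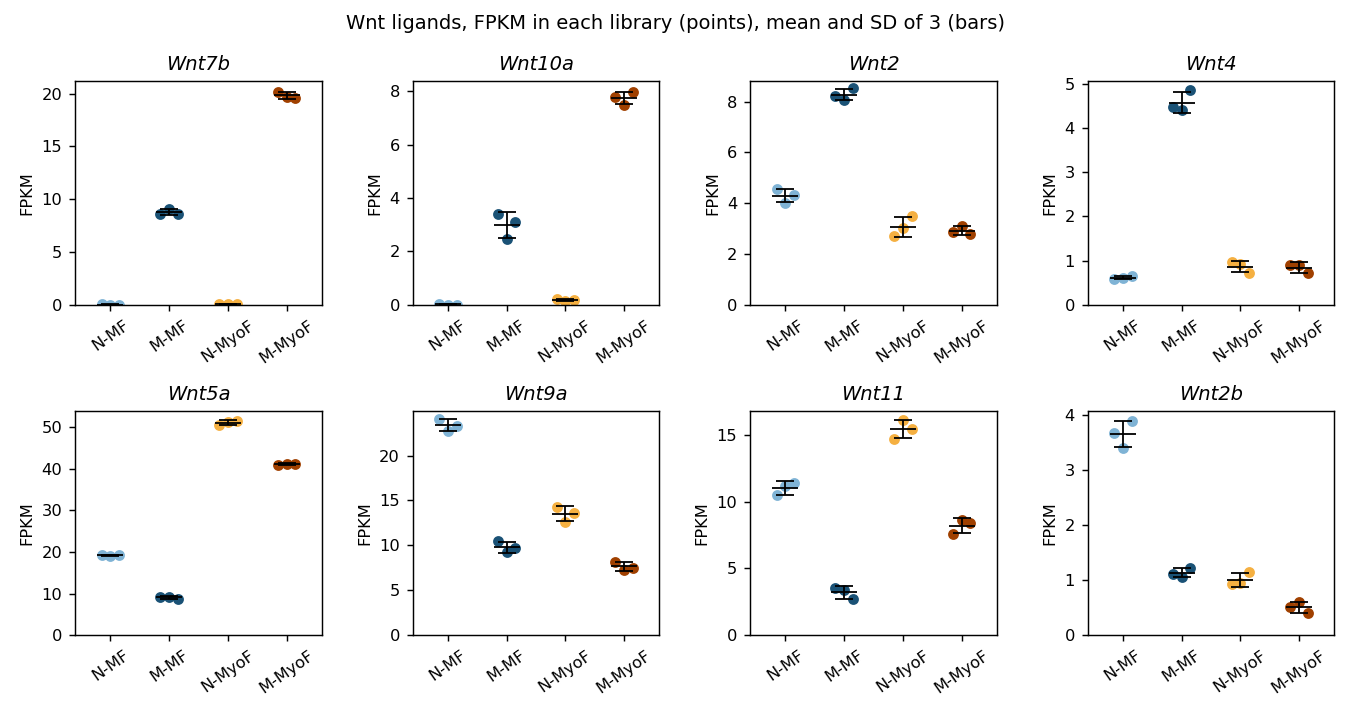
FPKM of the ligands in each library (points), by group on the horizontal axis, with the mean and SD of 3 libraries as bars and an own vertical scale for each gene. Wnt7b and Wnt10a are near 0 in all 6 normal libraries, Wnt4 is above 1 FPKM only in the 3 M-MF libraries, and Wnt9a and Wnt11 are lower in the metastasis libraries of both subgroups.

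The ligands that were most abundant in normal cells fell. Wnt5a (chromosome 14, 28504543 to 28527448), the main ligand of the branches without beta-catenin, was at 19.16, 19.08 and 19.27 FPKM in N-MF and at 9.27, 9.16 and 8.76 FPKM in M-MF. In N-MyoF it stood at 50.49, 51.30 and 51.64 FPKM and in M-MyoF at 40.96, 41.25 and 41.24 FPKM. Every metastasis library lay below every normal one of its subgroup. The decrease was larger in the MF subgroup (log2 change -1.0 ± 0.0245, limma, adjusted p = 7.86e-13) than in the MyoF subgroup (-0.31 ± 0.0245, adjusted p = 9.86e-08), with a difference of -0.70 ± 0.0347 (adjusted p = 3.22e-09).

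Wnt9a (chromosome 11, 59306849 to 59333552), the most abundant ligand of N-MF, showed 24.09, 22.77 and 23.27 FPKM there and 10.45, 9.24 and 9.66 FPKM in M-MF. MyoF values went from 14.29, 12.61 and 13.59 FPKM to 8.16, 7.29 and 7.49 FPKM. The groups did not overlap in either subgroup, and the log2 changes were -1.18 ± 0.0539 (limma, adjusted p = 3.91e-10) and -0.75 ± 0.0539 (adjusted p = 3.57e-08). Wnt3a, a ligand that lies 16098 bases before it on the same chromosome, was under 1 FPKM in all 12 libraries.

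Wnt11 (chromosome 7, 98835084 to 98854747), another ligand known mainly from branches without beta-catenin, was at 10.48, 11.19 and 11.43 FPKM in N-MF and at 3.56, 3.35 and 2.68 FPKM in M-MF. It was at 14.75, 16.12 and 15.46 FPKM in N-MyoF and at 7.55, 8.66 and 8.42 FPKM in M-MyoF. The decrease was again larger in the MF subgroup, with log2 changes of -1.52 ± 0.0735 and -0.84 ± 0.0735 (limma, adjusted p = 6.62e-10 and 2.54e-07) and a difference of -0.69 ± 0.104 (adjusted p = 9.02e-05). Wnt2b, a relative of Wnt2, fell as well: 3.66 ± 0.241 FPKM (SD, n = 3) in N-MF against 1.14 ± 0.0862 FPKM in M-MF, and 1.01 ± 0.124 FPKM in N-MyoF against 0.503 ± 0.10 FPKM in M-MyoF. Its log2 changes were -1.12 ± 0.0656 (limma, adjusted p = 4.52e-09) and -0.42 ± 0.0656 (adjusted p = 6.62e-05).

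The remaining ligands were low. Wnt10b, which is known to oppose fat cell formation, fell in the MF subgroup from 2.63, 2.22 and 2.12 FPKM to 1.0, 0.93 and 1.05 FPKM (log2 change -0.73 ± 0.0685, limma, adjusted p = 5.21e-07). It was at most 0.51 FPKM in the MyoF subgroup, and its log2 change of -0.19 (limma, adjusted p = 0.0230) did not pass without N-MyoF replicate 3 or M-MyoF replicate 1 (-0.16 to -0.13, adjusted p up to 0.106). Wnt7a was at most 0.56 FPKM in the MF subgroup and fell in the MyoF subgroup from 1.39 ± 0.0351 to 0.320 ± 0.0608 FPKM (log2 change -0.86 ± 0.0663, limma, adjusted p = 6.87e-08). The cartilage and atrial muscle sums given below beside Fzd9 were lower with Wnt7a, and their part was not tested. Wnt16 was above 1 FPKM only in the N-MF libraries, at 1.09, 1.17 and 1.35 FPKM, and fell to 0.26, 0.16 and 0.35 FPKM in M-MF (log2 change -0.81, limma, adjusted p = 1.33e-07). It was listed at 0 in all 3 M-MyoF libraries.

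Wnt5b, the closest relative of Wnt5a, fell in the MF subgroup from 3.51 ± 0.0917 to 2.48 ± 0.121 FPKM (log2 change -0.37 ± 0.0504, limma, adjusted p = 1.77e-05). In the MyoF subgroup its log2 change of 0.13 ± 0.0504 (limma, adjusted p = 0.0280) turned to -0.03 with quantile normalization and did not pass without N-MyoF replicate 1, N-MyoF replicate 2 or M-MyoF replicate 2 (0.10 to 0.13, adjusted p 0.0677 to 0.116).

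Summed over the 19 ligands, N-MF held 71.0 ± 1.04 FPKM and M-MF 52.1 ± 1.18 FPKM (SD, n = 3), while N-MyoF held 92.1 ± 1.21 and M-MyoF 93.3 ± 0.460 FPKM. The MF sum was thus lower in the metastasis libraries, whereas the MyoF sums lay within 3 FPKM of each other in all 6 libraries, between 91.41 and 93.79 FPKM. This holds for FPKM as listed, without rescaling. All genes together summed to 537057 to 541506 FPKM in N-MyoF and to 614237 to 618478 FPKM in M-MyoF. The composition differed in both subgroups. Wnt9a and Wnt5a made up 32.9% and 27.0% of the ligand sum in N-MF and 18.8% and 17.4% in M-MF, where Wnt7b came to 16.9%, Wnt2 to 15.9% and Wnt4 to 8.79%. In the MyoF subgroup Wnt5a went from 55.5% to 44.1%, Wnt11 from 16.8% to 8.80%, and Wnt7b from 0.0832% to 21.3%. These sums add levels scaled by transcript length and carry no test.

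**Figure D3:**
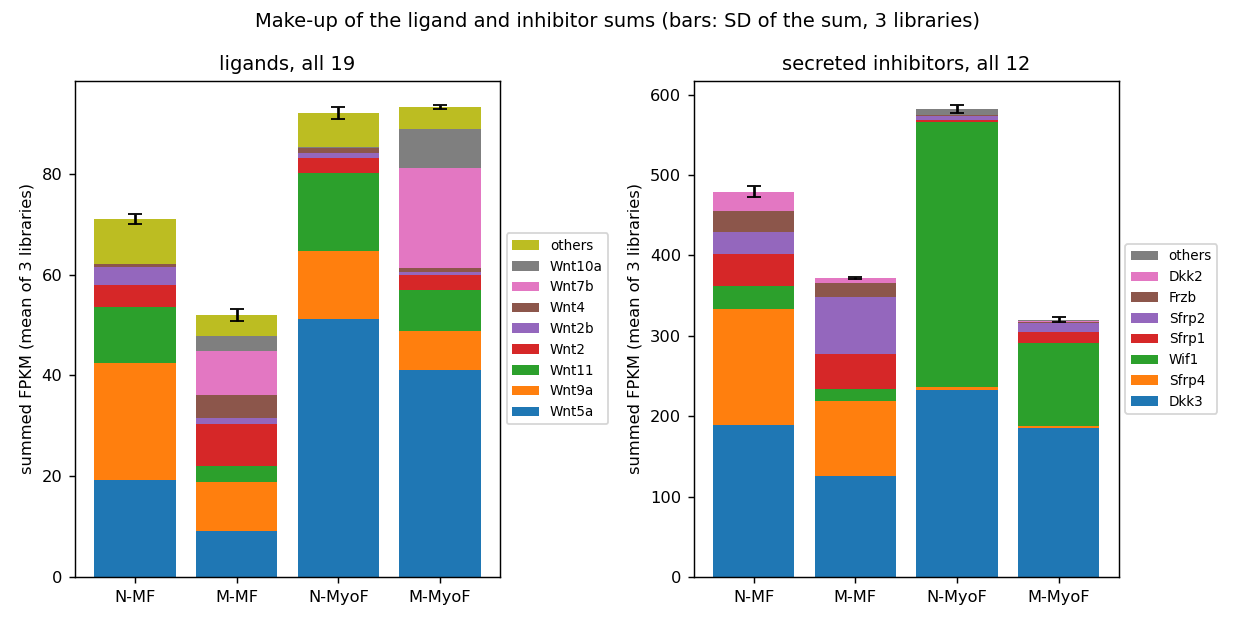
Bars show the summed FPKM of the 19 ligands and of the 12 secreted inhibitors in each group, divided by gene, starting at 0. The ligand sum is 71.0 FPKM in N-MF and 52.1 FPKM in M-MF, and Wnt7b takes up 21.3% of the M-MyoF bar, while Wif1 shrinks from 56.5% of the N-MyoF inhibitor bar to 32.4% of the M-MyoF bar.

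Because several ligands and receptors are themselves known as targets of beta-catenin, the 250 bases before the RefSeq start sites (GRCm38.p6) were searched on both strands for the core of the Tcf/Lef binding motif, spelled AACAAAG or ATCAAAG or TACAAAG or TTCAAAG. Windows were at hand for 36 of the 55 genes. Wnt7b and Wnt10a were not among these 36, so they were not searched. A match occurred in 4 of the 40 windows of the 36 genes (10.0%) and in 14.8% of all 32851 windows. The motif was thus not more frequent here than elsewhere. The 4 genes were Wnt11, Fzd7, Wnt5b and Dkk1. Windows of Wnt11, Fzd7 and Wnt5b are shown because these genes were tested and fell in M-MF, with the match in capitals. The Wnt11 window, 1 of 2 for this gene, is chr7:98834862-98835111 on the plus strand, with the match 51 to 45 bases before the start. The Fzd7 window is chr1:59481897-59482146 on the plus strand, with the match 130 to 124 bases before the start. The Wnt5b window, 1 of 3 for this gene, is chr6:119449387-119449636 on the minus strand, with the match on the opposite strand, 71 to 65 bases before the start. A match describes these letters only and shows no binding.
Wnt11: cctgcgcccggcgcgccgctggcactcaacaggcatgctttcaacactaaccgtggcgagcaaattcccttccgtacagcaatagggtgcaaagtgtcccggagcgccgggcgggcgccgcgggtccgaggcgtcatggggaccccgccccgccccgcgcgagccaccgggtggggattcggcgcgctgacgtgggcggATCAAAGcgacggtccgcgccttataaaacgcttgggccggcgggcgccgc
Fzd7: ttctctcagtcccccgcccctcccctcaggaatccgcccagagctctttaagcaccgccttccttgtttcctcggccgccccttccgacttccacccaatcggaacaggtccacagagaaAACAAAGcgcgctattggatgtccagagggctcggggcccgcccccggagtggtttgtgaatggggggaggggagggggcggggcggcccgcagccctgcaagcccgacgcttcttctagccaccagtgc
Wnt5b: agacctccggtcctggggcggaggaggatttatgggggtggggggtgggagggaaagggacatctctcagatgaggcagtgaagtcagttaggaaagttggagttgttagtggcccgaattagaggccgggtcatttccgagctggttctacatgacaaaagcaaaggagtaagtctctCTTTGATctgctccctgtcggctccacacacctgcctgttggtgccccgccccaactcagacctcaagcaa

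Among the Frizzled receptors, 7 of 10 were tested. Fzd4 (chromosome 7, 89404366 to 89410110), which also serves as the receptor of norrin in blood vessels, was the most abundant in the MF subgroup. It was at 20.45, 20.61 and 19.45 FPKM in N-MF and at 14.09, 13.91 and 13.74 FPKM in M-MF, without overlap (log2 change -0.51 ± 0.0443, limma, adjusted p = 2.77e-07). In N-MyoF it stood at 5.05, 4.36 and 4.67 FPKM and in M-MyoF at 4.93, 5.13 and 5.30 FPKM, where the groups overlap. The MyoF log2 change of 0.11 (limma, adjusted p = 0.0431) was lost with the replicate number as a block (adjusted p = 0.0533) and in 9 of 12 fits without 1 library (0.06 without N-MyoF replicate 2, adjusted p up to 0.193), and it turned to -0.05 with equal sums.

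Fzd6, a receptor of the planar cell polarity branch, was the only Frizzled gene called higher in both subgroups. It was at 0.85, 0.94 and 0.91 FPKM in N-MF and at 2.53, 2.68 and 2.94 FPKM in M-MF, and it went from 2.34, 2.46 and 2.48 FPKM in N-MyoF to 5.72, 4.93 and 5.05 FPKM in M-MyoF. Neither pair of groups overlapped, and the log2 changes of 0.97 ± 0.0563 and 0.86 ± 0.0563 (limma, adjusted p = 4.49e-09 and 1.28e-08) had a difference of 0.11 ± 0.0797, which did not pass (adjusted p = 0.264) but did with equal sums (0.22, adjusted p = 0.0366) and with a pseudocount of 0.1 (0.42, adjusted p = 0.00522). The neutrophil, mesothelial and keratin values given beside Wnt7b were higher with Fzd6, and their part was not tested.

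Fzd2, a receptor for Wnt5a, fell in both subgroups. It was at 8.47, 8.77 and 9.44 FPKM in N-MF and at 4.40, 4.37 and 4.35 FPKM in M-MF, and at 4.54, 4.44 and 4.86 FPKM in N-MyoF and 3.15, 2.61 and 3.23 FPKM in M-MyoF. Both decreases were free of overlap, with log2 changes of -0.88 ± 0.0597 and -0.49 ± 0.0597 (limma, adjusted p = 2.11e-08 and 5.94e-06). Fzd7, whose promoter window is printed above, fell from 3.36 ± 0.102 to 2.07 ± 0.189 FPKM in the MF subgroup (log2 change -0.50, limma, adjusted p = 2.22e-06) and was at 2.07 ± 0.147 and 2.10 ± 0.104 FPKM in N-MyoF and M-MyoF.

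Fzd9 was above 1 FPKM only in N-MyoF, at 1.43, 1.38 and 1.45 FPKM, and fell to 0.12, 0.14 and 0.14 FPKM in M-MyoF (log2 change -1.09 ± 0.049, limma, adjusted p = 2.69e-10). The sum of 10 atrial muscle markers was lower with it, at 1099 to 1144 FPKM in N-MyoF and 152 to 157 FPKM in M-MyoF, and so was that of 10 cartilage markers, at 367 to 373 FPKM and 67.2 to 67.7 FPKM. Their part in the Fzd9 value was not tested. Fzd1 was at 8.5, 8.38 and 7.86 FPKM in N-MF and 7.61, 7.92 and 7.88 FPKM in M-MF, which overlap. Fzd1 and Fzd3 did not pass in the MF subgroup (log2 changes -0.07 and -0.10, limma, adjusted p = 0.234 and 0.0661) and passed as lower with equal sums (adjusted p = 0.00846 and 0.0142). Between the MyoF groups Fzd1 fell from 7.08, 7.97 and 7.32 FPKM to 6.18, 6.50 and 5.62 FPKM (log2 change -0.25, limma, adjusted p = 0.000658) and Fzd3, also without overlap, from 1.08 ± 0.0231 to 0.597 ± 0.0643 FPKM (adjusted p = 7.75e-06).

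Of the coreceptors, Ror1 (chromosome 4, 100095791 to 100444806), a receptor tyrosine kinase that binds Wnt5a, moved in opposite directions. It rose from 8.22, 8.26 and 8.10 FPKM in N-MF to 15.75, 15.36 and 15.11 FPKM in M-MF. It fell from 17.69, 16.89 and 17.30 FPKM in N-MyoF to 12.22, 12.96 and 11.78 FPKM in M-MyoF. All M-MF libraries were above all N-MF libraries and all M-MyoF libraries below all N-MyoF libraries. The log2 changes were 0.84 ± 0.0351 (limma, adjusted p = 1.63e-10) and -0.46 ± 0.0351 (adjusted p = 6.37e-08), with a difference of 1.29 ± 0.0496 (adjusted p = 2.76e-10).

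Ror2, its relative, showed the same directions at a lower level: 1.74 ± 0.199 FPKM in N-MF, 2.26 ± 0.122 in M-MF, 2.66 ± 0.163 in N-MyoF and 2.08 ± 0.139 in M-MyoF. The log2 changes were 0.25 and -0.25, each ± 0.0605 (limma, adjusted p = 0.00201 and 0.00213), and the MF increase did not pass with quantile normalization (0.08, adjusted p = 0.221). Lrp6, the main coreceptor of the beta-catenin branch, fell in both subgroups by similar amounts, from 3.58 ± 0.0503 to 2.56 ± 0.0924 FPKM and from 3.43 ± 0.114 to 2.55 ± 0.0985 FPKM. The difference between its log2 changes of -0.36 and -0.32 was -0.04 ± 0.0565 (limma, adjusted p = 0.515). Lrp5 was under 1 FPKM in the MF subgroup, and its MyoF decrease from 1.96 ± 0.160 to 1.59 ± 0.0400 FPKM (limma, adjusted p = 0.0120) did not pass without N-MyoF replicate 2 (log2 change -0.15, adjusted p = 0.0551).

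R-spondins, the ligands of the Lgr receptors, were higher in the MF subgroup. Rspo1 was at 12.26, 11.92 and 11.96 FPKM in N-MF and at 2.90, 2.97 and 3.43 FPKM in N-MyoF, and Rspo3 at 5.46, 5.21 and 4.99 FPKM in N-MF and at 1.55, 1.92 and 1.61 FPKM in N-MyoF. The MF libraries were above all MyoF libraries for both genes, with log2 differences of 1.67 ± 0.0595 and 1.21 ± 0.0617 between N-MF and N-MyoF (limma, adjusted p = 2.42e-11 and 9.82e-10). In M-MF Rspo1 was at 11.30, 10.86 and 10.73 FPKM and in M-MyoF at 2.87, 3.04 and 3.51 FPKM. With metastasis, Rspo1 did not pass in either subgroup (log2 changes -0.13 and 0.01, limma, adjusted p = 0.0713 and 0.845). The Rspo1 value in the MF subgroup passed without N-MyoF replicate 3 or M-MyoF replicate 3 (adjusted p = 0.0349 to 0.0428) and with equal sums (log2 change -0.23, adjusted p = 0.00443).

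Rspo3, a mesenchymal R-spondin, was at 6.38, 5.63 and 5.59 FPKM in M-MF and at 2.0, 2.08 and 1.88 FPKM in M-MyoF. It gave log2 changes of 0.14 in the MF subgroup (limma, adjusted p = 0.0522) and 0.15 in the MyoF subgroup (adjusted p = 0.0386). The first passed with the replicate number as a block (adjusted p = 0.0454) and without any 1 of N-MF replicate 1, M-MF replicate 3, N-MyoF replicate 1 and N-MyoF replicate 2 (adjusted p = 0.0294 to 0.0485). The second was lost without N-MyoF replicate 1 or 3 or M-MyoF replicate 1 or 2 (adjusted p = 0.0802 to 0.142) and turned to -0.02 with quantile normalization. Rspo4 did change: it fell from 1.41, 1.90 and 1.71 FPKM in N-MF to 0.40, 0.58 and 0.31 FPKM in M-MF (log2 change -0.90 ± 0.0841, limma, adjusted p = 5.11e-07), to the level of the MyoF libraries, which ran from 0.25 to 0.40 FPKM.

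Lgr6 (chromosome 1, 134983300 to 135105374), an R-spondin receptor known from airway smooth muscle, had the largest difference between N-MF and N-MyoF of the 41 genes after Sfrp4. It was at 85.60, 82.38 and 81.83 FPKM in N-MyoF and at 44.62, 44.46 and 45.15 FPKM in M-MyoF, a log2 change of -0.88 ± 0.035 (limma, adjusted p = 7.79e-11). In the MF subgroup it was at 1.65, 1.48 and 1.43 FPKM in N-MF and 2.34, 2.28 and 2.26 FPKM in M-MF (0.39 ± 0.035, adjusted p = 3.79e-07). The 4 groups did not overlap, and the changes were opposite in sign with a difference of 1.27 ± 0.0495 (adjusted p = 3.21e-10). Lgr6 was also on the list of 12 genes used to check the subgroup names, where the difference between N-MF and N-MyoF was -5.06 on the log2 scale. The 10 smooth muscle markers summed to 1577 to 1616 FPKM in N-MyoF and to between 2278 and 2312 FPKM in M-MyoF. Of these 10, 7 were called higher in M-MyoF and 2 lower (limma, backgrounds 49.1% and 31.6%). Of the 12 genes used to check the subgroup names, 8 were called lower in M-MyoF and 2 higher, with Lgr6 among the lower ones. The part of these genes in the Lgr6 values was not tested.

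Lgr5, a stem cell marker in intestine, was higher in the MyoF subgroup too, at 9.41, 10.17 and 10.27 FPKM in N-MyoF and 3.58, 3.96 and 3.47 FPKM in M-MyoF. This decrease of -1.23 ± 0.0504 (limma, adjusted p = 1.07e-10) was larger than the one in the MF subgroup, from 1.76, 1.63 and 1.68 FPKM to 1.24, 1.11 and 1.18 FPKM (-0.31 ± 0.0504, adjusted p = 0.000108), with a difference of 0.92 ± 0.0713 (adjusted p = 2.14e-07). The cartilage and atrial muscle sums were lower with Lgr5 in M-MyoF, as beside Fzd9. So were 8 of the 12 genes used to check the subgroup names (background 31.6%). The part of either was not tested. Lgr4, the most widely expressed of the 3 receptors, was at 7.21, 7.22 and 7.07 FPKM in N-MF and at 7.59, 7.53 and 7.75 FPKM in N-MyoF (log2 difference -0.08 ± 0.0396, limma, adjusted p = 0.0838). It fell to 6.15, 5.69 and 5.80 FPKM in M-MF and to 5.25, 5.69 and 5.78 FPKM in M-MyoF, by 0.25 and 0.39 on the log2 scale (adjusted p = 8.18e-05 and 1.01e-06). The sum of the 3 Lgr genes was 101 ± 1.53 FPKM in N-MyoF and 54.0 ± 0.487 FPKM in M-MyoF, against 10.4 ± 0.224 and 9.35 ± 0.339 FPKM in the MF groups.

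Znrf3, the ligase that removes Frizzled receptors and is itself a known target of beta-catenin, followed Lgr6 in direction in the MyoF subgroup. It was at 8.5, 7.93 and 7.82 FPKM in N-MyoF and 4.94, 5.08 and 5.25 FPKM in M-MyoF (log2 change -0.58 ± 0.0503, limma, adjusted p = 2.39e-07). In the MF subgroup it fell from 3.53, 3.25 and 3.39 FPKM to 2.55, 2.79 and 2.36 FPKM (-0.30 ± 0.0503, adjusted p = 0.000122). The decreases were free of overlap in both subgroups.

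Secreted inhibitors were the most abundant of the 55 genes, and 9 of 12 were tested. Dkk3, a Dickkopf family member whose effect on Wnt signalling varies with the cell, was at 193.38, 186.92 and 187.65 FPKM in N-MF and 125.36, 125.57 and 126.82 FPKM in M-MF. It was at 232.87, 233.60 and 232.45 FPKM in N-MyoF and at 185.20, 185.01 and 184.03 FPKM in M-MyoF. The metastasis libraries were lower in both subgroups without overlap, with log2 changes of -0.58 ± 0.0165 and -0.33 ± 0.0165 (limma, adjusted p = 3.06e-12 and 7.34e-10).

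Wif1 (chromosome 10, 121034004 to 121100642), which binds Wnt proteins directly, was the most abundant gene of the set in N-MyoF. It was at 336.03, 326.30 and 324.71 FPKM there and at 105.51, 103.67 and 101.77 FPKM in M-MyoF. In the MF subgroup it was at 30.61, 27.86 and 28.56 FPKM in N-MF and at 15.10, 14.19 and 15.32 FPKM in M-MF. Both groups of metastasis libraries were below their normal counterparts, and the MyoF decrease of -1.66 ± 0.0356 (limma, adjusted p = 1.94e-13) was larger than the MF decrease of -0.92 ± 0.0356 (adjusted p = 7.24e-11) by 0.74 ± 0.0504 (adjusted p = 6.73e-08). The cartilage and atrial muscle sums given beside Fzd9 were lower in M-MyoF together with Wif1. So were 8 of the 12 genes used to check the subgroup names (background 31.6%). The part of either in the Wif1 values was not tested.

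Dkk2 (chromosome 3, 132085266 to 132180304), a Dickkopf protein that binds Lrp5 and Lrp6, fell in the MF subgroup. It was at 23.74, 23.76 and 24.14 FPKM in N-MF and at 5.05, 5.58 and 5.31 FPKM in M-MF, a 3.94-fold decrease on the scale used (log2 change -1.98 ± 0.0409, limma, adjusted p = 1.52e-13). MyoF levels were low in all 6 libraries, at 0.30, 0.36 and 0.30 FPKM in N-MyoF and 0.48, 0.45 and 0.46 FPKM in M-MyoF. The MyoF log2 change of 0.15 (adjusted p = 0.00478) did not pass without the 4 libraries numbered 3 (0.14, adjusted p = 0.0625) and turned to -0.12 with quantile normalization. The difference of effects was -2.13 ± 0.0579 (adjusted p = 1.2e-11), the largest in size among the 41 genes.

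The Sfrp genes encode decoys that resemble the ligand-binding part of Frizzled, and their tested members did not move together. Sfrp2 rose in both subgroups: from 27.44, 28.55 and 27.31 FPKM in N-MF to 70.37, 71.96 and 70.26 FPKM in M-MF, and from 3.98, 4.27 and 4.19 FPKM in N-MyoF to 12.47, 12.40 and 11.76 FPKM in M-MyoF. No library overlapped, the log2 changes were 1.32 ± 0.0322 and 1.36 ± 0.0322 (limma, adjusted p = 7.52e-13 and 4.75e-13), and their difference was -0.04 ± 0.0455 (adjusted p = 0.473). That difference depends on the pseudocount, being 0.30 with a pseudocount of 5 and -0.19 with one of 0.1 (adjusted p = 0.00584). The sums of neutrophil and mesothelial markers given beside Wnt7b were higher with Sfrp2 in both subgroups, and with Sfrp1 in the MyoF subgroup, and their part was not tested.

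Sfrp1 rose mainly in the MyoF subgroup. It was at 3.02, 3.6 and 3.41 FPKM in N-MyoF and at 13.49, 13.06 and 12.60 FPKM in M-MyoF (log2 change 1.70 ± 0.0428, limma, adjusted p = 8.46e-13). In the MF subgroup it was high throughout, at 39.67, 39.00 and 39.27 FPKM in N-MF and 43.65, 43.87 and 43.78 FPKM in M-MF. This small increase of 0.15 (adjusted p = 0.00598) was 0.04 with equal sums (adjusted p = 0.385) and turned to -0.09 with quantile normalization. The effects differed by -1.54 ± 0.0605 (adjusted p = 3.34e-10), so that the distance between the subgroups was smaller in metastasis, 1.67 against 3.22 on the log2 scale.

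Sfrp4 and Frzb were genes of the MF subgroup and fell there. Sfrp4 was at 145.26, 142.82 and 142.47 FPKM in N-MF and at 93.29, 94.29 and 91.51 FPKM in M-MF (log2 change -0.62 ± 0.0513, limma, adjusted p = 1.55e-07), against 3.01, 3.61 and 2.98 FPKM in N-MyoF and 2.61, 2.39 and 2.72 FPKM in M-MyoF (-0.23, adjusted p = 0.00111). Frzb, also called Sfrp3, was at 25.96, 25.18 and 26.39 FPKM in N-MF and at 18.33, 17.48 and 17.28 FPKM in M-MF (-0.52 ± 0.0594, adjusted p = 3.66e-06). The MF decreases of both genes were free of overlap. Of the 12 genes used to check the subgroup names, 7 were called lower in M-MF and 4 higher (limma, all genes 31.8% and 46.3%). Their part in the MF decreases of Sfrp4, Frzb and Dkk2 was not tested. In the MyoF subgroup Frzb was at 1.65, 1.40 and 1.39 FPKM and at 1.49, 1.15 and 1.16 FPKM and did not pass (log2 change -0.13, limma, adjusted p = 0.0577), but it did with the replicate number as a block (adjusted p = 0.0191), without N-MyoF replicate 3 or M-MyoF replicate 1 (-0.20 to -0.16) and with equal sums (-0.25).

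Sfrp5 and Notum, an enzyme that removes the lipid from Wnt proteins, were low genes of the N-MyoF libraries. Sfrp5 was at 4.50, 4.40 and 5.17 FPKM in N-MyoF and at 0.58, 0.40 and 0.34 FPKM in M-MyoF (log2 change -1.98 ± 0.0709, limma, adjusted p = 2.71e-11), and at most 0.17 FPKM in the MF libraries. Notum went from 2.16, 2.23 and 1.99 FPKM to 0.87, 1.12 and 1.31 FPKM in the MyoF subgroup (-0.58 ± 0.0845, adjusted p = 3.41e-05). Neither passed in the MF subgroup (adjusted p = 0.966 and 0.373), though both did with quantile normalization (log2 changes -0.17 and -0.35). The MyoF decreases went with lower cartilage and atrial muscle sums, given beside Fzd9. They also went with lower values of 8 of the 12 genes used to check the subgroup names (background 31.6%). The part of either was not tested.

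**Figure D4:**
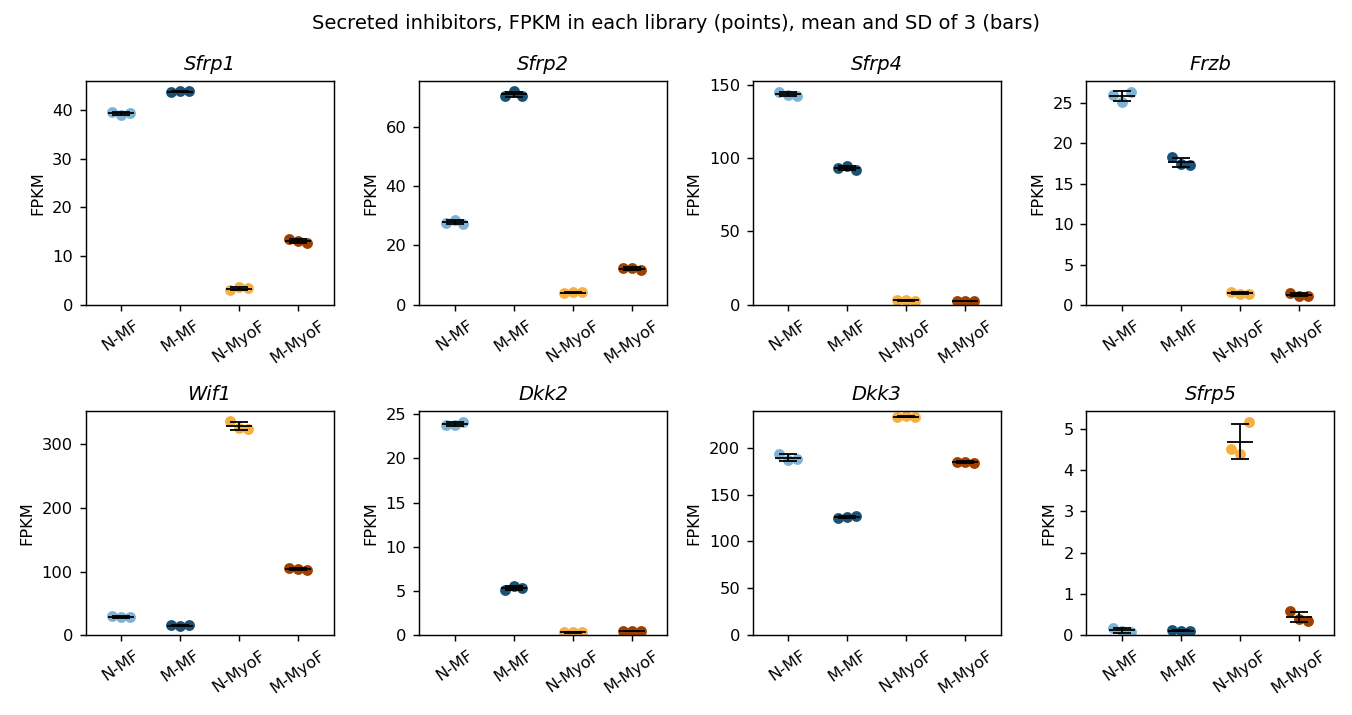
FPKM of 8 secreted inhibitors in each library (points), by group on the horizontal axis, with the mean and SD of 3 libraries as bars and an own vertical scale from 0 for each gene. Sfrp2 is higher in the metastasis libraries of both subgroups, Wif1 and Dkk3 lower in both, Dkk2 is high only in N-MF and Sfrp5 only in N-MyoF.

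Summed over the 12 inhibitors, N-MF held 479 ± 6.63 FPKM and M-MF 372 ± 1.32 FPKM, while N-MyoF held 582 ± 5.46 and M-MyoF 319.8 ± 3.26 FPKM (SD, n = 3). Dkk3, Sfrp4 and Sfrp1 accounted for 39.5%, 29.9% and 8.20% of the sum in N-MF, and Dkk3, Sfrp4 and Sfrp2 for 33.8%, 25.0% and 19.0% in M-MF. In N-MyoF Wif1 and Dkk3 made up 56.5% and 40.0%, and in M-MyoF 32.4% and 57.8%.

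Axin2, the feedback inhibitor most often read as a target of the beta-catenin branch, was low in all groups. It was at 0.99, 1.09 and 1.09 FPKM in N-MF and 0.80, 0.77 and 0.85 FPKM in M-MF, and at 2.53, 2.71 and 2.51 FPKM in N-MyoF and 1.79, 1.67 and 1.85 FPKM in M-MyoF. The metastasis libraries were lower in both subgroups without overlap, with log2 changes of -0.19 ± 0.0463 (limma, adjusted p = 0.00253) and -0.37 ± 0.0463 (adjusted p = 7.8e-06). The difference of 0.18 (adjusted p = 0.0260) did not pass without any 1 of N-MF replicate 1, M-MF replicate 3, N-MyoF replicate 2 and M-MyoF replicate 2 (adjusted p = 0.0576 to 0.0640), nor without the 4 libraries numbered 3 (adjusted p = 0.0641) or with a pseudocount of 0.1 (0.17, adjusted p = 0.198).

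The other genes of the pathway were read from 6 lists. Of 15 tested genes commonly used as Wnt targets, 6 were higher and 8 lower in M-MF (limma, all genes 46.3% and 31.8%). In M-MyoF 5 were higher and 5 lower (all genes 49.1% and 31.6%). Ccnd1, the cell cycle protein cyclin D1, averaged 2.81 FPKM in N-MF and 53.5 FPKM in M-MF (log2 change 3.84 ± 0.0285), and 4.01 FPKM in N-MyoF and 113 FPKM in M-MyoF (4.51 ± 0.0285). Bambi, a decoy receptor for TGF-beta ligands, fell in both subgroups (-1.0 ± 0.0215 and -0.83 ± 0.0215). Cd44, a hyaluronan receptor, rose in both subgroups (1.40 and 0.52, each ± 0.024). Myc averaged 543 FPKM in N-MyoF and 327 FPKM in M-MyoF (-0.73 ± 0.0175), but was called higher in M-MF, at 224 FPKM against 204 FPKM in N-MF (0.13 ± 0.0175). The targets thus went in both directions. The members with feedback roles that were lower in both subgroups included Nkd1 (-0.40 and -0.42) and Nkd2 (-0.90 and -0.50), proteins that bind Dishevelled. These 2 were chosen after their values were seen. Others of the list did not follow: Lef1, Tcf7 and Apcdd1 were not called in M-MyoF (-0.04, 0.03 and 0.05). In M-MF Lef1 was not called (0.11), while Tcf7 and Apcdd1 were lower (-0.19 and -0.53).

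Of 13 tested genes for Wnt secretion and surface carriers, 6 were higher and 7 lower in M-MF (all genes 46.3% and 31.8%). In M-MyoF 2 were higher and 9 lower (all genes 49.1% and 31.6%). Gpc3, a glypican that holds Wnt proteins at the cell surface, averaged 1022 FPKM in N-MF and 294 FPKM in M-MF (log2 change -1.79 ± 0.0158, limma, adjusted p = 8.2e-17). Reck, part of a coreceptor complex for Wnt7 proteins, averaged 35.8 FPKM in N-MF and 8.73 FPKM in M-MF (-1.92 ± 0.0288) and fell in the MyoF subgroup as well (-0.76 ± 0.0288). Gpc1, another glypican, rose in both subgroups (1.96 ± 0.0519 and 2.13 ± 0.0519). Tspan12, a partner of Fzd4, fell in the MyoF subgroup from a mean of 29.7 to 15.4 FPKM and in the MF subgroup from 14.4 to 11.4 FPKM.

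Of 8 tested further antagonists, 1 was higher and 4 were lower in M-MF (all genes 46.3% and 31.8%). In M-MyoF 2 were higher and 3 lower (all genes 49.1% and 31.6%). Serpinf1, which binds Lrp6, averaged 2309 FPKM in N-MF and 896 FPKM in M-MF (log2 change -1.36 ± 0.0373), and Kremen1, a Dickkopf receptor, fell there by 0.67 on the log2 scale, as did Apcdd1 by 0.53. In the MyoF subgroup Igfbp4, a binding protein for insulin-like growth factors that also blocks Wnt receptors, rose from a mean of 185 to 673 FPKM (1.86 ± 0.0163). The sclerostin gene Sost and its relative Sostdc1 fell there from 1.98 to 0.0200 FPKM and from 4.84 to 0.347 FPKM, together with the cartilage and atrial muscle sums, whose part was not tested.

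Inside the cell, 0 of the tested genes of the next 3 lists reached 2-fold in either subgroup, where 11.9% and 14.6% of all genes did. Of 18 genes of the beta-catenin destruction complex and Dishevelled, 4 were higher and 8 lower in M-MF (all genes 46.3% and 31.8%). In M-MyoF 2 were higher and 8 lower (all genes 49.1% and 31.6%). Ctnnb1, beta-catenin itself, gave log2 changes of 0.15 ± 0.0292 in the MF subgroup and of 0.37 ± 0.0292 in the MyoF subgroup, where it averaged 23.9 and 31.1 FPKM. Dvl3, a Dishevelled gene, fell in both subgroups (-0.52 and -0.15 on the log2 scale). Of the casein kinases that phosphorylate beta-catenin and its partners, Csnk1d and Csnk1a1 rose in the MF subgroup (0.33 ± 0.0242 and 0.38 ± 0.0311). Both were called lower in the MyoF subgroup (-0.07 and -0.08), where Csnk1e fell as well (-0.30 ± 0.0322). Csnk1e was not called in the MF subgroup (-0.07, limma, adjusted p = 0.0554). Gsk3b, the other kinase of the complex, fell in both subgroups (-0.11 and -0.26, each ± 0.0407).

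Of 14 nuclear partners of beta-catenin, 1 was higher and 8 were lower in M-MF (all genes 46.3% and 31.8%). In M-MyoF 3 were higher and 7 lower (all genes 49.1% and 31.6%). Tcf7l2, the most abundant of the Tcf/Lef factors, averaged 27.3 FPKM in N-MF and 19.8 FPKM in M-MF (-0.45 ± 0.0303) and fell less in M-MyoF (-0.12 ± 0.0303). Tcf7l1 fell in both subgroups (-0.35 and -0.59, each ± 0.0522). Tle2, a corepressor, fell in both (-0.45 and -0.38, each ± 0.041), and so did the coactivator gene Pygo1 (-0.43 and -0.38, each ± 0.0552). Bcl9l, also a coactivator gene, fell in M-MyoF (-0.42 ± 0.046) and was not called in M-MF (0.05 ± 0.046). Of 13 genes of the planar cell polarity and calcium branches, 1 was higher and 7 were lower in M-MF (all genes 46.3% and 31.8%). In M-MyoF 2 were higher and 9 lower (all genes 49.1% and 31.6%). Daam1, which links Dishevelled to actin, fell in both (-0.88 ± 0.0351 and -0.74 ± 0.0351), and Vangl1, a polarity protein, rose in M-MyoF (0.82 ± 0.0544). Its relative Vangl2 fell in M-MF and M-MyoF (-0.30 and -0.17, each ± 0.0405), as did the calcium-regulated factor Nfatc1 (-0.31 and -0.41, each ± 0.0485). Prickle2, also of the polarity branch, fell in both as well (-0.24 and -0.64, each ± 0.0439).

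Between the subgroups in normal lung, 38 of the 41 genes passed, against 82.0% of all genes, with 18 higher in N-MF and 20 higher in N-MyoF (24.5% and 57.6%). At 2-fold or more 21 passed, against 16.8% of all genes, 12 higher in N-MF and 9 in N-MyoF (4.88% and 11.9%), and the groups did not overlap for 39 genes (82.4%). This comparison uses the same normal libraries as the metastasis comparisons. By role, the tested R-spondins were all higher in N-MF (3 of 3), the coreceptors Lrp5, Ror1 and Ror2 and the receptors Lgr5 and Lgr6 higher in N-MyoF, and the inhibitors were divided. Sfrp4, Dkk2, Frzb, Sfrp1 and Sfrp2 were higher in N-MF, by 5.11, 4.24, 3.44, 3.22 and 2.48 on the log2 scale. Wif1, Sfrp5, Notum and Dkk3 were higher in N-MyoF, with log2 differences of -3.46, -2.35, -1.14 and -0.30.

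In metastatic lung 36 of the 41 genes passed between the subgroups, against 85.1% of all genes, with 18 higher in M-MF and 18 in M-MyoF (19.1% and 66.0%). At 2-fold or more 17 passed, against 13.6%, 10 higher in M-MF and 7 in M-MyoF (4.74% and 8.82%), and 36 genes did not overlap (85.6%). Wnt5a was higher in the MyoF subgroup in both settings, with a log2 difference of -1.37 ± 0.0245 between N-MF and N-MyoF and of -2.07 ± 0.0245 between M-MF and M-MyoF. Wnt4 had a log2 difference of -0.21 in normal lung (limma, adjusted p = 0.00877), which turned to 0.19 with quantile normalization, and of 1.60 ± 0.0634 in metastatic lung (adjusted p = 8.9e-11). Ror1 also changed sides, from -0.99 ± 0.0351 to 0.30 ± 0.0351 (adjusted p = 2.26e-11 and 3.82e-06). Rspo4, with a difference of 1.04 ± 0.0841 in normal lung, did not pass in metastatic lung (0.08, adjusted p = 0.380).

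**Figure D5:**
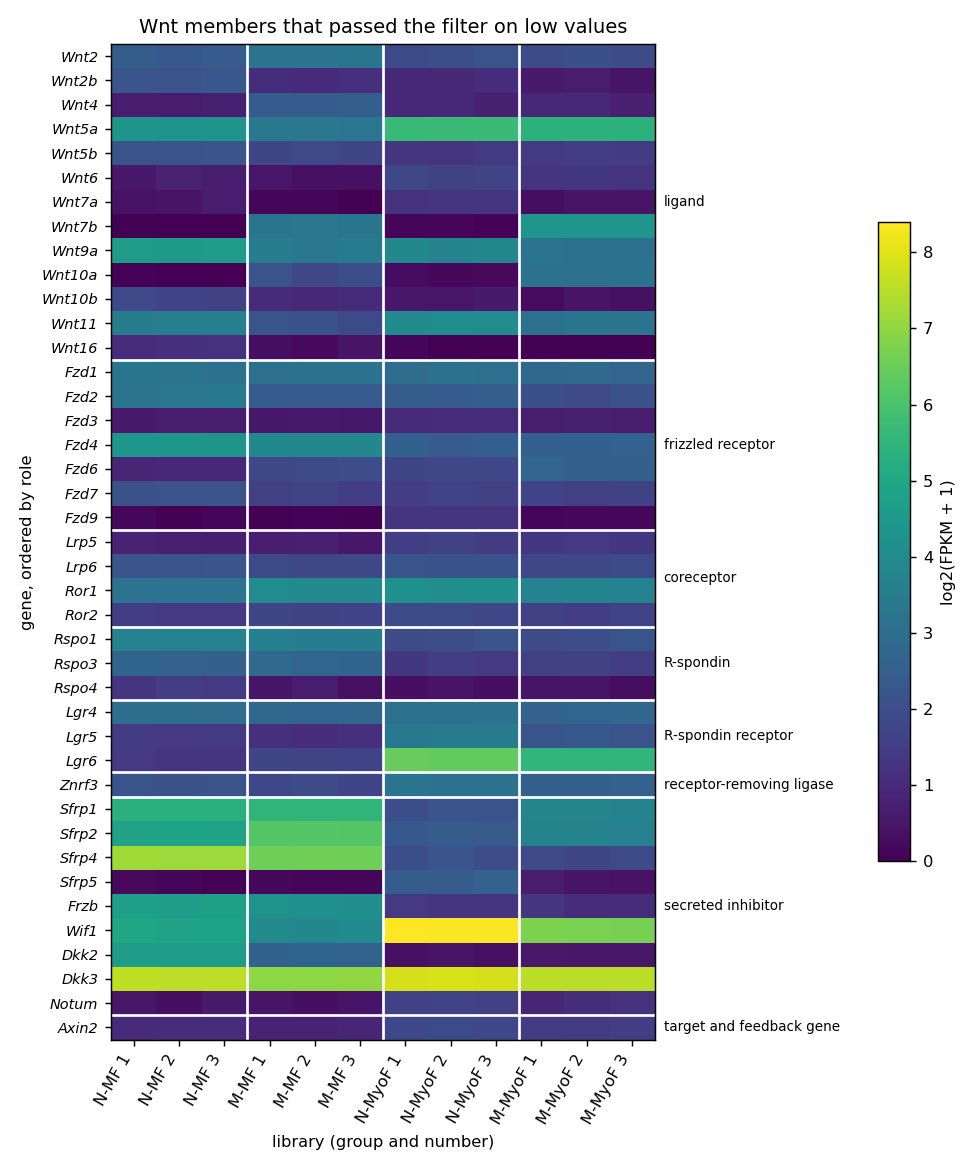
Colours show log2(FPKM + 1) of the tested genes (rows, ordered by role) in the 12 libraries (columns, by group). Libraries of 1 group look alike, Sfrp4, Frzb and Dkk2 are strong in the MF columns, Wif1 and Lgr6 in the MyoF columns, and Wnt7b and Wnt10a only in the metastasis columns.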

How the data were processed

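RNA was extracted with Trizol, cDNA made from polyA RNA with the SMART-seq2 method and libraries built by transposition, per the labels' protocols. The deposited values are FPKM made by the authors, per the file headers, and have 2 decimals. The genome build was GRCm38, per the submitters' processing notes. For the aligner, the counting tool and the annotation nothing is given in the sources used here. The table gives 20606 genes in 12 libraries, and the groups come from the sample titles. Since FPKM hide the depth, the spread of 3 libraries per group is the only measure of precision.

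Values were analysed as log2(FPKM + 1) with limma 3.58.1 in R 4.3.3 (statmod 1.5.0), for 13300 genes that reached 1 FPKM in 3 or more libraries. A model of 4 group means with a mean-variance trend gave 5 contrasts, and p-values were adjusted by Benjamini-Hochberg over all tested genes. The code was tested on simulated data. The members and lists were chosen with earlier results of these data known. Named genes are the members, and per list the 3 with the smallest p in each subgroup. Beside these, Nkd1, Nkd2, Lef1 and Tcf7 are named from the list of targets. Of 225 list entries 224 matched by symbol. Positions (55 of 55 genes) and promoter windows are RefSeq, GRCm38.p6, joined by gene number. Tables and figures used Python 3.11.15, pandas 2.3.3, numpy 2.4.6 and matplotlib 3.10.9.

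The library numbers pair the libraries across groups: deviations from group means over 1830 genes correlated at 0.482 to 0.796 in all 18 pairs with the same number and at -0.683 to 0.380 in 36 other pairs. No label says what the numbers mark. The alternatives were other pseudocounts, filters, scalings, variance models and thresholds, the number as a block, and libraries left out.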

Additional observations from a re-analysis of the deposited data

Results flagged for a closer look

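The metastasis effects of the subgroups differed by the test of the difference itself (limma, adjusted p under 0.05 over all genes) in 34 of the 41 tested genes, where 64.4% of all genes differed. Values are log2 differences, the change from N-MF to M-MF minus the change from N-MyoF to M-MyoF. Groups of 3 libraries are too small for a test of single outlying libraries.

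Positive differences mean a larger increase or a smaller decrease in the MF subgroup. Among the ligands they were 1.81 for Wnt4, 0.86 for Wnt2 and 0.46 for Wnt7a. Among receptors and coreceptors they were 1.29 for Ror1, 1.04 for Fzd9, 0.50 for Ror2, 0.28 for Fzd3 and 0.18 for Fzd1. In the R-spondin branch they were 1.27 for Lgr6, 0.92 for Lgr5, 0.14 for Lgr4 and 0.28 for the ligase Znrf3. For inhibitors and feedback they were 1.98 for Sfrp5, 0.74 for Wif1, 0.49 for Notum and 0.18 for Axin2.

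Negative differences mean a smaller increase or a larger decrease in the MF subgroup. Most ligands were of this kind: Wnt7b at -1.0, Wnt10a at -0.93, Wnt16 at -0.74, Wnt2b at -0.71, Wnt5a at -0.70, Wnt11 at -0.69, Wnt10b at -0.55, Wnt5b at -0.51 and Wnt9a at -0.43. The Frizzled receptors were Fzd4 at -0.61, Fzd7 at -0.52 and Fzd2 at -0.39. The rest were Rspo4 at -0.96 and the inhibitors Dkk2 at -2.13, Sfrp1 at -1.54, Frzb at -0.39, Sfrp4 at -0.39 and Dkk3 at -0.25.

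The groups moved in opposite directions, each passing its own test, for Ror1, Ror2, Lgr6, Wnt5b, Fzd4 and Dkk2, although the MyoF increases of the last 3 genes depend on the scaling. The differences of Fzd1 (adjusted p = 0.0470) and Lgr4 (adjusted p = 0.0385) were narrow: each leaves the threshold without 1 library in 9 and 7 of 12 fits (adjusted p up to 0.114 and 0.0944), and that of Lgr4 also with the replicate number as a block (adjusted p = 0.0537). With a pseudocount of 0.1 those of Wnt7a (0.23, adjusted p = 0.560), Notum (0.67, adjusted p = 0.0544) and Wnt10b (-0.57, adjusted p = 0.0553) did not pass, nor did that of Axin2 (0.17, adjusted p = 0.198), while that of Fzd6, which is not among the 34, passed (0.42, adjusted p = 0.00522).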

How the results depend on the processing

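Each of the 205 log2 values of tested genes was recomputed under 26 other settings. Of 5199 values, 120 lost the call, 67 gained one and 18 changed sign with a call in at least 1 setting, 17 of them under another scaling. The other 4994 kept their side of the threshold, though 42 of these changed sign with no call in either setting. The read depth behind the FPKM is unknown, so the limit it sets on low genes cannot be given.

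With quantile normalization the sign turned for Sfrp1 in the MF subgroup (-0.086), for Wnt5b (-0.033), Fzd4 (-0.075), Fzd7 (-0.15), Rspo1 (-0.17), Rspo3 (-0.020) and Dkk2 (-0.12) in the MyoF subgroup, for Wnt4 (0.19), Fzd3 (0.012) and Lgr4 (0.18) between N-MF and N-MyoF, and for Fzd3 (0.21), Fzd7 (0.34) and Fzd9 (0.039) between M-MF and M-MyoF. Median-ratio scaling turned Fzd4 in the MyoF subgroup (-0.051), Lgr4 between N-MF and N-MyoF (0.10) and Fzd7 between M-MF and M-MyoF (0.16), equal sums turned Fzd4 (-0.054), and a pseudocount of 5 turned the difference of effects of Sfrp2 (0.30). The cause was not tested.

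A filter of 5 FPKM, which leaves fewer genes, gave 21 calls for M-MF against N-MF, 20 for M-MyoF against N-MyoF, 20 for the difference, 21 for N-MF against N-MyoF and 22 for M-MF against M-MyoF, in place of 33, 34, 34, 38 and 36, and 5 and 13 calls at 2-fold for the difference and for N-MF against N-MyoF in place of 8 and 21. At 2-fold, a pseudocount of 0.1 gave 15 in the MF subgroup and 26 between M-MF and M-MyoF (main 9 and 17), and a pseudocount of 5 gave 3, 4, 1, 11 and 7 in the order above (main 9, 8, 8, 21 and 17), since it shrinks low values more.

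With the replicate number as a block the calls were 34, 34, 33, 38 and 35. Beside the block values printed with Fzd4, Rspo3, Frzb and Lgr4, only Fzd9 between M-MF and M-MyoF lost its call (adjusted p = 0.0574) and Wnt7b between N-MF and N-MyoF gained one with the block as a random term (adjusted p = 0.0476); it changed no other call. Leaving out 1 library gave 33 to 34, 31 to 34, 32 to 33, 36 to 38 and 34 to 36 calls, and 8 to 10, 8, 7 to 9, 20 to 22 and 17 at 2-fold.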
